A study of Mus musculus with 9 samples.

Results

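The core pluripotency transcription factors described here are 10 genes of the embryo's undifferentiated state, Nanog, Pou5f1, Sox2, Esrrb, Klf2, Klf4, Klf5, Tbx3, Zfp42 and Sall4. They were taken by gene name from a table of 20087 named genes. All 10 were in it, and all 10 were among the 13343 genes tested, those with a normalised count of 10 or more in 3 or more of the 9 libraries. Polyadenylated RNA was sequenced from mouse embryos of the B6D2F1 background, which had been given siRNA, a short RNA that lowers the messenger RNA it matches, by injection at the zygote stage. Embryos of the Hdac1/2 cKD group (a co-knockdown) received siRNA to Hdac1 and Hdac2, whose products remove acetyl groups from histones. Those of the Sin3a KD group received siRNA to Sin3a, which encodes the protein that holds both deacetylases in a corepressor complex, and those of the NC group a nonspecific control siRNA. Collection was at E2.75, which is near the morula stage, and each group has 3 libraries of 60 pooled embryos. NC embryos are labelled wild type, and both other groups are knockdowns that keep part of the targeted transcripts, not deletions.

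These factors bind regulatory DNA together and keep cells able to form the whole embryo proper. POU5F1 (OCT4) pairs with SOX2 on a composite DNA element, NANOG and the nuclear receptor ESRRB join them, and the zinc finger factors KLF2, KLF4 and KLF5, the T-box factor TBX3 and the zinc finger factor SALL4 reinforce the circuit. Zfp42 (REX1) is best known as a marker of the naive state. At the morula stage, cells begin to choose between trophectoderm, from which the placenta arises, and the inner cell mass, where this network stays active. In pools of whole embryos, fewer cells of a type and less RNA per cell cannot be told apart.

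In Hdac1/2 cKD embryos 5 of the 10 factors fell, Pou5f1, Esrrb, Klf5, Tbx3 and Zfp42, to between 54.1% and 79.7% of their NC means. In Sin3a KD embryos Nanog fell, to 47.0% of its NC mean, and the other 9 did not pass the test. The Nanog call was kept in 14 of 20 other settings of the fit. In Hdac1/2 cKD against NC the Pou5f1 call was kept in 15 of 20 and the Tbx3 call in 13. Between the knockdowns themselves, Pou5f1, Esrrb, Klf4, Klf5, Tbx3 and Zfp42 were lower in Hdac1/2 cKD than in Sin3a KD. There the call was kept in 18 of 20 other settings for Pou5f1, 15 for Klf4 and 12 for Zfp42. No factor rose in any of the 3 comparisons. Calls in either direction covered 15.6% of all tested genes in Hdac1/2 cKD against NC. They covered 7.96% in Sin3a KD against NC and 17.3% between the knockdowns.

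The targeted genes were lowest in the libraries labelled for them, in normalised counts (read counts that the authors scaled for library size with DESeq2). Mean Hdac1 was 943 in Hdac1/2 cKD, 1910.4 in Sin3a KD and 5569 in NC. Mean Hdac2 was 305 in Hdac1/2 cKD, 2060.0 in Sin3a KD and 2286 in NC, and mean Sin3a was 2045 in Hdac1/2 cKD, 431 in Sin3a KD and 1484 in NC. Hdac1 also fell in Sin3a KD (adjusted p = 0.00297), so the effects of lower Sin3a and lower Hdac1 cannot be told apart in that group. The third NC library stood apart, with a first principal component score of -96.6, where the others of its group had -16.8 and -20.7, and it listed the largest share of genes at 0 (28.4%). Lanes differed between groups, with NC replicate 1 and Sin3a KD replicate 1 alone on theirs. NC replicate 3, the library that stood apart, is the only NC library on lane 3. Each difference from NC within lane 3 given below therefore rests on it. Library totals ran from about 11900000 to 13500000 normalised counts, which are already scaled for library size and so do not show depth in reads. Whether replicates are separate collections of embryos is not in the labels, and p-values speak of the spread among these libraries, which may be technical.

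Upstream DNA is shown for 4 of the factors, because 1 of them fell in Sin3a KD (Nanog) and the others fell together in Hdac1/2 cKD (Zfp42, Pou5f1 and Esrrb). Each stretch is the 250 bases before the annotated start site, 5′ to 3′, from RefSeq on GRCm38.p6. They are Nanog at chr6:122707239-122707488 (forward strand), Zfp42 at chr8:43307010-43307259 (reverse strand), Pou5f1 at chr17:35505782-35506031 (forward strand) and Esrrb at chr12:86360867-86361116 (forward strand). The RefSeq table held 7 of the 10 factors; Klf5, Tbx3 and Sall4 had no entry. Capitals mark matches, on either strand, to the POU octamer core ATGCAAA, the SOX core CATTGT or the KLF core GGGNGTG; the ESRR letters AAGGTCA were searched as well.
Nanog: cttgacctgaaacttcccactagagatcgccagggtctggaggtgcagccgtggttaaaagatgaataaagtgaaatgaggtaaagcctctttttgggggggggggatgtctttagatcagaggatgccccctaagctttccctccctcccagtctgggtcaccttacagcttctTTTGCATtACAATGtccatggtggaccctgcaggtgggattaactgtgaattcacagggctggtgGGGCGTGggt
Zfp42: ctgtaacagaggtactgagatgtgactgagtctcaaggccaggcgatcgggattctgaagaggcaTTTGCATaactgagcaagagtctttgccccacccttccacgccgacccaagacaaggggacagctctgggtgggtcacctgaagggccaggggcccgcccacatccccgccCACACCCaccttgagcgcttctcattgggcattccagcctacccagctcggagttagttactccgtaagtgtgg
Pou5f1: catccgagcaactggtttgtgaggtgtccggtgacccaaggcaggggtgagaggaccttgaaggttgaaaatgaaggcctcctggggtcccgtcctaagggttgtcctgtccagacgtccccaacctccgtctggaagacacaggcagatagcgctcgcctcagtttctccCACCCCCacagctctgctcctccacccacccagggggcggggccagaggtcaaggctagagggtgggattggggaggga
Esrrb: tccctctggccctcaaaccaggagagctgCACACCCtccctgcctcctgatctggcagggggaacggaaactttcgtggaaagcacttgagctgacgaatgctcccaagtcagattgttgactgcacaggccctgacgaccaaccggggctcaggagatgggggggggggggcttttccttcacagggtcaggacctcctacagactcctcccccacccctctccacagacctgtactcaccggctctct

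The Nanog stretch held a POU octamer core from base -75 to -69 and a SOX core from -67 to -62, with 1 base between them, and a KLF core from -10 to -4. A POU octamer core lay within 3 bases of a SOX core in 6 of 32851 upstream stretches of the same length, which belong to 5 genes and include Nanog. The Zfp42 stretch held a POU octamer core (-185 to -179) and a KLF core (-74 to -68), Sox2 a POU octamer core (-99 to -93), and Pou5f1 (-79 to -73) and Esrrb (-221 to -215) a KLF core each. Klf2 and Klf4 held none of the 4 letter strings. Of all stretches, 4.13% held the POU octamer core, 10.7% the SOX core, 26.1% the KLF core and 4.08% the ESRR letters. A match is a description of letters, and binding was not measured.

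**Figure D1:**
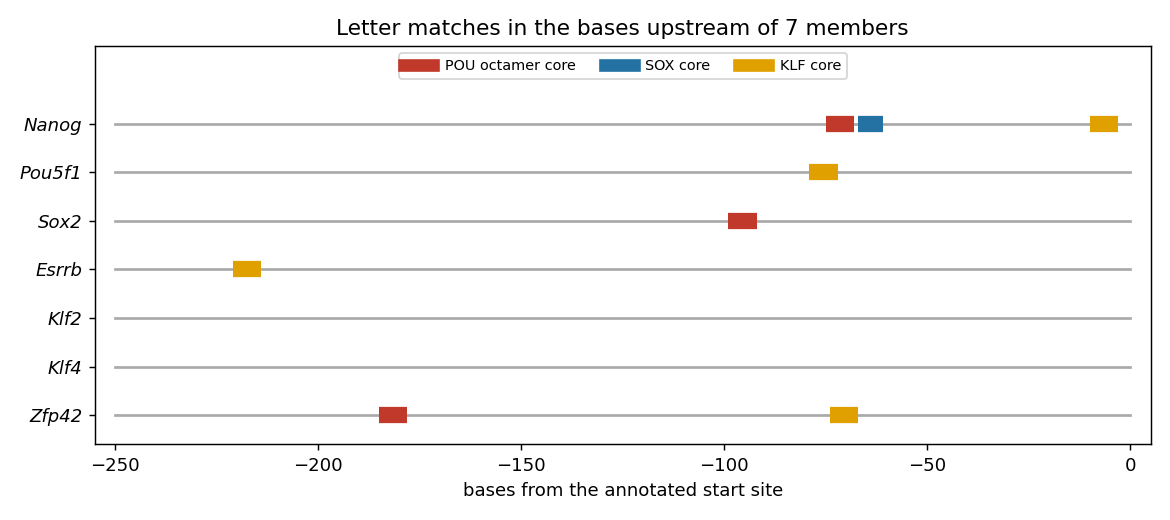
Positions of letter matches, in bases from the annotated start site, in the upstream stretch of each of the 7 factors with a RefSeq entry; colours give the motif. The Nanog line has a POU octamer core and a SOX core side by side, and the Klf2 and Klf4 lines have no match.

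Levels were compared between genes as normalised counts per kilobase of annotated exon (GENCODE vM21). The length is that of all annotated exons of a gene merged, which can exceed that of the transcripts present. Whether the order of the genes holds with other lengths was not tested. Pou5f1 had the highest level in every group. Per kilobase it stood at 6837 ± 546 in Hdac1/2 cKD, 8972 ± 399 in Sin3a KD and 8581 ± 92.7 in NC (SD, n = 3 each). Sox2 had the lowest level, at 6.24 ± 0.59 per kilobase in Hdac1/2 cKD, 8.32 ± 5.48 in Sin3a KD and 12.2 ± 8.62 in NC. The other 8 factors lay between these extremes. In NC embryos Klf5 followed Pou5f1 (2205 ± 145 per kilobase), then Tbx3 (1468 ± 219), Klf2 (1309 ± 286), Sall4 (1134 ± 124), Zfp42 (849 ± 98.7), Klf4 (828 ± 128), Nanog (596 ± 165) and Esrrb (423 ± 96.8). In that order the library ranges of Tbx3 and Klf2, Klf2 and Sall4, Zfp42 and Klf4, Klf4 and Nanog, and Nanog and Esrrb overlapped. Klf2 came second in Hdac1/2 cKD embryos (1649 ± 225 per kilobase), with a range that overlapped that of Klf5 (1435 ± 113). In Sin3a KD embryos Nanog (280.0 ± 102 per kilobase) came ninth, below Esrrb (500.1 ± 73), and these ranges did not overlap.

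**Figure D2:**
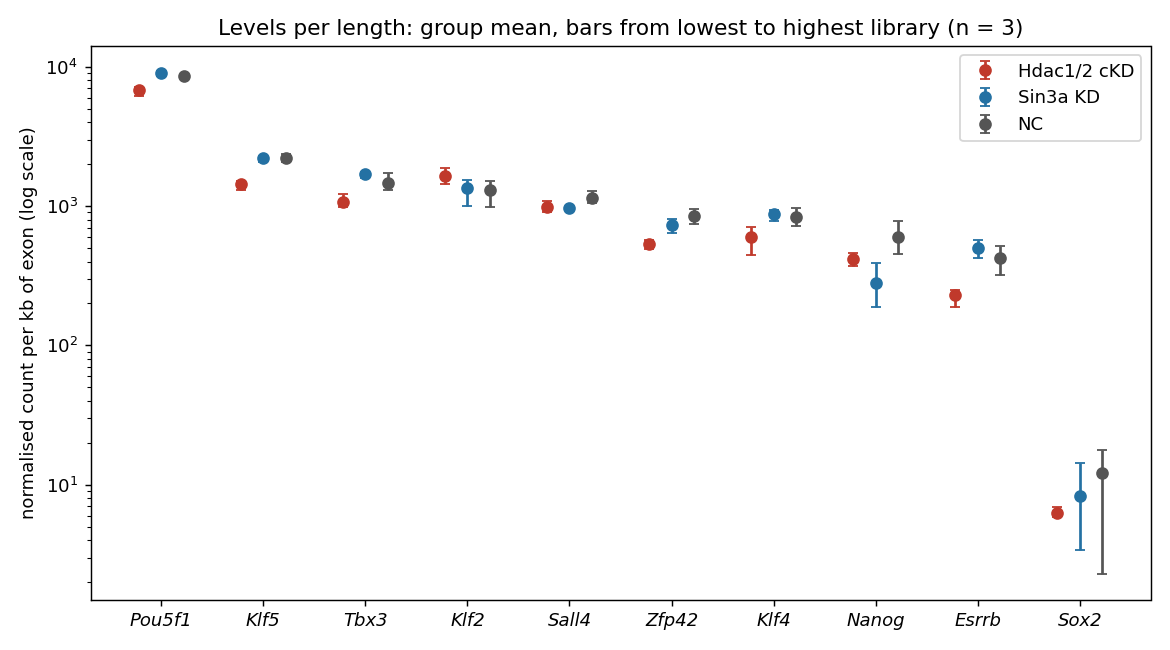
Normalised counts per kilobase of exon on a log axis for the 10 factors, ordered by their NC mean; points are group means and bars run from the lowest to the highest of 3 libraries, with Hdac1/2 cKD left, Sin3a KD in the middle and NC right. Pou5f1 lies highest and Sox2 lowest in every group.

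Against NC, 5 of the 10 factors were called lower in Hdac1/2 cKD, beside 7.8% of all 13343 tested genes called lower, 7.81% called higher and 15.6% called in either direction. A call is an adjusted p below 0.05 from limma, a linear model with moderated variances fitted to log2(normalised count + 1) in all 9 libraries, with Benjamini-Hochberg adjustment over all tested genes. The median log2 fold change was -0.48 over the 10 factors and 0.03 over all tested genes, and 9 of the 10 factors had a negative value. For 6 factors every Hdac1/2 cKD library lay below every NC library, beside 16% of tested genes with such a gap in this direction, 17.1% in the other and 33.1% in either. The factors were chosen with earlier results of these data known, so these counts describe them and are no independent evidence of their direction.

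Among the core trio, Pou5f1, which encodes the POU factor OCT4 (chromosome 17, 35506018 to 35510772, forward strand), had 13954, 16012 and 16142 normalised counts in Hdac1/2 cKD, 20398, 20929.6 and 19180.0 in Sin3a KD, against 19326, 19065 and 19477 in NC. Every Hdac1/2 cKD library lay below every library of the other groups, which overlapped. Its log2 fold change was -0.33 in Hdac1/2 cKD against NC (SE 0.08, limma adjusted p = 0.014). Without Hdac1/2 cKD replicate 1, its lowest library, the adjusted p was 0.0783, and with libraries scaled to equal totals, which lifts the median of all genes by 0.11 on the log2 scale, it was 0.0559. The call was also lost with lane as a factor (adjusted p = 0.0604), without the pair of libraries alone on their lanes (0.0569) and with plain eBayes moderation (0.0982). In Sin3a KD the log2 fold change was 0.06 (95% interval -0.11 to 0.24).

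Nanog, a homeobox factor of the inner cell mass (chromosome 6, 122707489 to 122714633, forward strand), had 828, 1033 and 931 normalised counts in Hdac1/2 cKD, 422, 875 and 587 in Sin3a KD, against 1012, 1257 and 1738 in NC. The Sin3a KD libraries all lay below the NC libraries, while the Hdac1/2 cKD libraries overlapped both groups. Nanog fell in Sin3a KD (log2 fold change -1.12, SE 0.25, limma adjusted p = 0.0194). That call was lost without Sin3a KD replicate 1 (adjusted p = 0.0675), without Sin3a KD replicate 3 (0.0776) and without NC replicate 3 (0.0596), its highest library. It was also lost with lane as a factor (adjusted p = 0.0629), without the pair of libraries alone on their lanes (0.0724) and with plain eBayes moderation (0.0942). Within lane 3 the log2 difference was -1.28, for 2 Sin3a KD libraries against 1 NC library. That NC library is replicate 3, the one with the highest Nanog value. Its log2 fold change of -0.49 in Hdac1/2 cKD did not pass (95% interval -1.03 to 0.05, adjusted p = 0.215). The difference between the knockdowns did not pass either (log2 0.63 for Hdac1/2 cKD minus Sin3a KD, SE 0.25, adjusted p = 0.1098), so the knockdowns are not shown to differ in Nanog. Without Sin3a KD replicate 2 that difference was 0.90 (adjusted p = 0.019), and without Sin3a KD replicate 1 it was 0.37 (adjusted p = 0.353). GENCODE lists Nanog pseudogenes on chromosomes X and 12, so its division of reads is uncertain.

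Sox2, the SOX partner of OCT4 (chromosome 3, 34650405 to 34652461, forward strand), was near the lower limit of the table. It had 14.2, 12.2 and 12.1 normalised counts in Hdac1/2 cKD, 15.1, 29.3 and 7.0 in Sin3a KD, against 36.6, 34.0 and 4.7 in NC. The lowest and the highest value were both NC libraries, and a difference was not detectable at these counts (log2 -0.50 with a 95% interval of -2.19 to 1.19 for Hdac1/2 cKD minus NC, and log2 -0.31 with an interval of -2.00 to 1.38 for Sin3a KD minus NC). Its exon lies within the span of the noncoding gene Sox2ot on the same strand.

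Sall4, a zinc finger factor that sustains Pou5f1 in stem cells (chromosome 2, 168748332 to 168767943, reverse strand), had 6038, 5319 and 5012 normalised counts in Hdac1/2 cKD, 5327, 5286 and 5439.7 in Sin3a KD, against 7060.4, 5796 and 5976 in NC. Its Sin3a KD libraries all lay below the NC libraries, but it did not pass (log2 -0.22, SE 0.10, limma adjusted p = 0.193). The Hdac1/2 cKD and NC libraries overlapped (log2 -0.20, SE 0.10, adjusted p = 0.205).

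**Figure D3:**
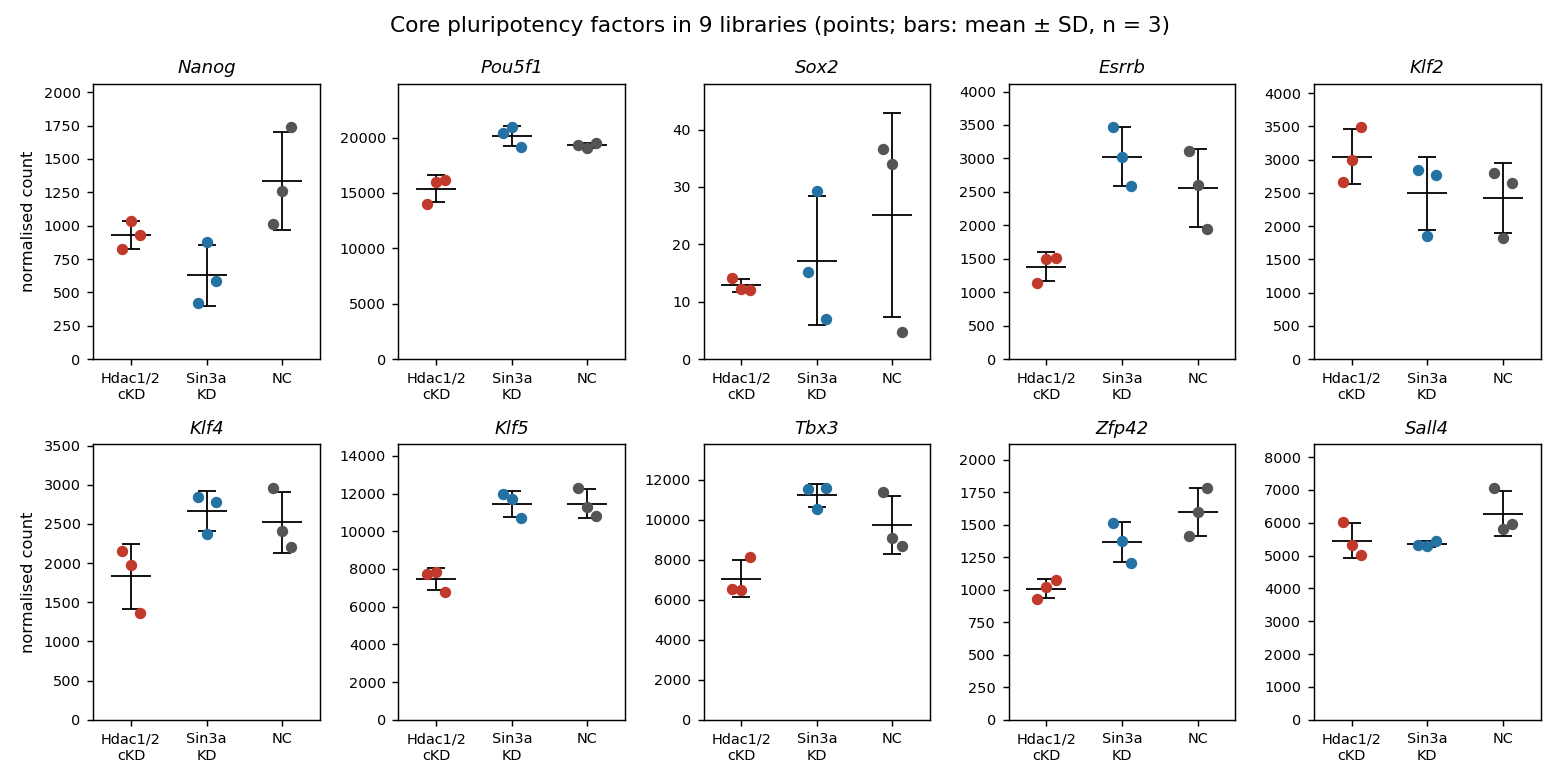
Normalised counts (linear axes from 0) of the 10 factors in each library, with Hdac1/2 cKD left, Sin3a KD in the middle and NC right; points are libraries and bars the mean ± SD (n = 3). For Pou5f1, Esrrb, Klf4, Klf5, Tbx3 and Zfp42 the Hdac1/2 cKD points lie below all others, and for Nanog the lowest points are Sin3a KD libraries.

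Among the factors that reinforce the trio, Esrrb, an orphan nuclear receptor (chromosome 12, 86361117 to 86521628, forward strand), had 1136, 1499.8 and 1514 normalised counts in Hdac1/2 cKD, 3466, 3024 and 2583 in Sin3a KD, against 3116, 2604 and 1949 in NC. The Hdac1/2 cKD libraries lay below all 6 others. Esrrb had the lowest log2 fold change of the 10 factors in Hdac1/2 cKD against NC (-0.87, SE 0.17, limma adjusted p = 0.00471), at 54.1% of the NC mean. It was called in all 20 other settings tried. Within lane 2 (2 Hdac1/2 cKD libraries against 1 NC library) its log2 difference was -0.995, and within lane 3 (1 against 1) it was -0.36. In Sin3a KD it did not pass (log2 0.26, 95% interval -0.11 to 0.63).

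Klf5, a zinc finger factor needed for both early lineages (chromosome 14, 99298691 to 99315036, forward strand), had 7729.9, 7865 and 6789.5 normalised counts in Hdac1/2 cKD, 11984, 11709 and 10692 in Sin3a KD, against 12296, 11280.1 and 10829 in NC. Its Hdac1/2 cKD libraries stood apart from both other groups, which overlapped closely. Klf5 fell in Hdac1/2 cKD (log2 -0.62, SE 0.09, limma adjusted p = 0.000626), a call kept in all 20 other settings. In Sin3a KD its log2 fold change was -0.00055, with a 95% interval of -0.20 to 0.19. Within lanes 2 and 3 the Hdac1/2 cKD minus NC difference was -0.53 and -0.67 on the log2 scale.

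Klf4, one of the reprogramming factors and a target of LIF signalling (chromosome 4, 55527143 to 55532466, reverse strand), had 2159.9, 1973 and 1369 normalised counts in Hdac1/2 cKD, 2845, 2377 and 2784 in Sin3a KD, against 2959, 2405 and 2209 in NC. All 3 Hdac1/2 cKD libraries lay below all others, the nearest NC library by a narrow margin. Against NC it did not pass (log2 -0.48, SE 0.16, limma adjusted p = 0.0669), and single libraries moved it both ways. Without Hdac1/2 cKD replicate 1 the log2 fold change was -0.61 (adjusted p = 0.0428), without Hdac1/2 cKD replicate 3 it was -0.28 (adjusted p = 0.252), and without NC replicate 1 it was -0.36 (adjusted p = 0.203).

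Klf2, the relative of Klf4 and Klf5 (chromosome 8, 72319033 to 72321656, forward strand), had 2661, 2987 and 3486 normalised counts in Hdac1/2 cKD, 2848, 1855 and 2771 in Sin3a KD, against 2792, 1813 and 2649.9 in NC. The 3 groups overlapped, and it was the single factor with a positive log2 fold change in Hdac1/2 cKD against NC (0.35, 95% interval -0.07 to 0.77, adjusted p = 0.252), which did not pass. In Sin3a KD its log2 fold change was 0.04 (95% interval -0.38 to 0.46).

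Tbx3, a T-box factor of the LIF response (chromosome 5, 119670669 to 119684724, forward strand), had 6534, 6493 and 8135 normalised counts in Hdac1/2 cKD, 11536, 10549.7 and 11596 in Sin3a KD, against 11386, 9089 and 8706 in NC. The Hdac1/2 cKD libraries lay below all others. Tbx3 fell (log2 -0.46, SE 0.12, limma adjusted p = 0.0165), but the call was lost without Hdac1/2 cKD replicate 1 (adjusted p = 0.0741) or 2 (0.077), without NC replicate 1 (0.0616) and with equal library totals (0.0531). It was also lost with lane as a factor (log2 -0.32, adjusted p = 0.0905), without the pair of libraries alone on their lanes (0.0903) and with plain eBayes moderation (0.0997). Within lane 2 the log2 difference was -0.48 and within lane 3 it was -0.10. In Sin3a KD it did not pass (log2 0.22, 95% interval -0.04 to 0.47). The antisense gene Tbx3os1 overlaps its start, and the strand setting of the counting is not given in the sources used here.

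Zfp42, the naive-state marker REX1 (chromosome 8, 43295063 to 43306980, reverse strand), had 927, 1019.6 and 1072 normalised counts in Hdac1/2 cKD, 1516, 1372 and 1208 in Sin3a KD, against 1410.1, 1597 and 1782 in NC. Every Hdac1/2 cKD library lay below every other library. Zfp42 fell in Hdac1/2 cKD (log2 -0.66, SE 0.13, limma adjusted p = 0.0039), to 63.0% of the NC mean, and was called in all 20 other settings. Within lanes 2 and 3 the log2 difference was -0.72 and -0.73. In Sin3a KD it did not pass (log2 -0.23, 95% interval -0.50 to 0.05). GENCODE lists a Zfp42 pseudogene on chromosome 15, so its division of reads is uncertain.

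In Sin3a KD against NC, 1 of the 10 factors was called lower, beside 4.36% of tested genes called lower, 3.6% called higher and 7.96% called in either direction. For 2 factors, Nanog and Sall4, every Sin3a KD library lay below every NC library, beside 13.3% of tested genes in this direction, 13.9% in the other and 27.1% in either. The median log2 fold change was 0.02 over the 10 factors and 0.03 over all tested genes, with 5 values above and 5 below 0. Both comparisons use the same NC libraries and are not independent.

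Set directly against each other, the knockdowns differed in 6 of the 10 factors, all lower in Hdac1/2 cKD than in Sin3a KD, beside 8.78% of tested genes called lower, 8.49% called higher and 17.3% called in either direction. The libraries of these 6 did not overlap, as held for 19.3% of tested genes in this direction, 20.4% in the other and 39.7% in either. Esrrb differed most (log2 -1.13, SE 0.17, limma adjusted p = 0.000769), at 45.7% of the Sin3a KD mean. Tbx3 (log2 -0.68, adjusted p = 0.00153) and Klf5 (log2 -0.62, adjusted p = 0.00052) were also called in all 20 other settings. Pou5f1 (log2 -0.39, SE 0.08, adjusted p = 0.00456) was called in 18 of 20 other settings, and not with lane as a factor (adjusted p = 0.105) or with plain eBayes moderation (0.0562). Calls for Klf4 (log2 -0.56, adjusted p = 0.0308) and Zfp42 (log2 -0.44, adjusted p = 0.0317) had larger adjusted p-values. Klf4 lost its call without Hdac1/2 cKD replicate 3 (adjusted p = 0.121), Sin3a KD replicate 1 (0.1095) or Sin3a KD replicate 3 (0.0945), without the pair of libraries alone on their lanes (0.0983) and with plain eBayes moderation (0.119). Zfp42 lost it without any single Hdac1/2 cKD library (0.0504 to 0.121) and without Sin3a KD replicate 1 (0.141) or 2 (0.0802). Zfp42 also lost it with lane as a factor (0.351), without the pair of libraries alone on their lanes (0.123) and with plain eBayes moderation (0.0915). Within lane 3 (1 Hdac1/2 cKD library against 2 Sin3a KD libraries) all 6 differences kept this direction, from -0.91 for Klf4 to -0.26 for Zfp42 on the log2 scale. Klf2, Nanog, Sall4 and Sox2 did not pass.

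**Figure D4:**
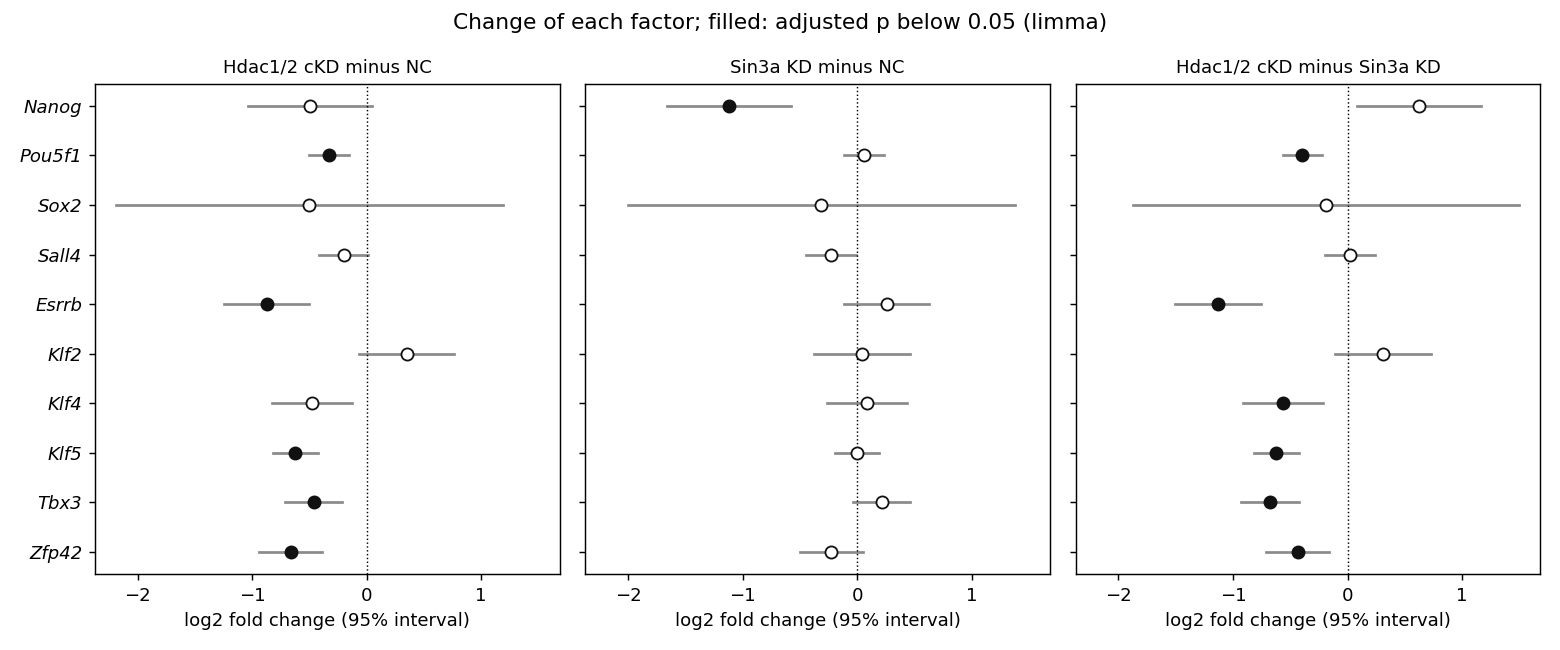
Log2 fold changes of the 10 factors with 95% intervals from limma, not adjusted for the number of genes, in the 3 comparisons; filled points have an adjusted p below 0.05. In Hdac1/2 cKD minus NC 5 points are filled, in Sin3a KD minus NC the Nanog point alone, and in Hdac1/2 cKD minus Sin3a KD 6, all below 0.

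Pearson's r was taken on log2 values over the 9 libraries, which share the group differences above. Among Pou5f1, Esrrb, Klf5, Tbx3 and Zfp42 it ran from 0.60 (Tbx3 with Zfp42) to 0.93 (Pou5f1 with Esrrb). These are the factors called lower against NC in the co-knockdown, so positive r among them follows from that choice. Klf4, not called there, had r of 0.86 with Klf5, 0.72 with Esrrb, 0.67 with Tbx3, 0.59 with Pou5f1 and 0.47 with Zfp42. Whether the factors vary together within groups was not tested. Pearson's r of Klf2 with the other 9 factors ran from -0.56 (Klf5) to -0.11 (Sall4), and was weak with Tbx3 (-0.21) and Nanog (-0.23) as well. Nanog had r of -0.10 with Pou5f1. Among 9213 genes with a mean of at least 50 normalised counts, the gene most like Klf5 was Atg14 (r = 0.99), that most like Pou5f1 was Glul (0.99), that most like Esrrb was Cirh1a (0.98) and that most like Nanog was Rnf130 (0.97), each over 9 libraries. For the others they were Ubtf for Tbx3 (0.97), Ppie for Zfp42 (0.97), Eif4g2 for Sall4 (0.98), Terf2ip for Klf4 (0.96), Polr1a for Sox2 (0.96) and Fam161a for Klf2 (0.92). Each is the highest r of a search over at least 9213 genes in 9 libraries, and such a search can give a high r by chance. How high was not tested, so these names describe the libraries and are no evidence of co-expression.

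Calls among the other KLF genes are given with the shares of all tested genes called. Of 13 other KLF genes 11 were tested, and in Hdac1/2 cKD against NC Klf9 fell (888 normalised counts in Hdac1/2 cKD, 1608 in NC, log2 -0.86, SE 0.13, limma adjusted p = 0.000746) and Klf6 rose (248 in Hdac1/2 cKD, 136 in NC, log2 0.90, SE 0.27, adjusted p = 0.0354), while 9 did not pass. In Sin3a KD against NC Klf13 rose (2612 normalised counts in Sin3a KD, 1471 in NC, log2 0.83, SE 0.18, adjusted p = 0.0141) and 10 did not pass. Between the knockdowns Klf9, Klf13 and Klf17 were lower in Hdac1/2 cKD. Of all tested genes, 15.6% were called in Hdac1/2 cKD against NC, 7.96% in Sin3a KD against NC and 17.3% between the knockdowns. The KLF counts rest on few genes and, set beside these shares, are no result about the family.

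**Figure D5:**
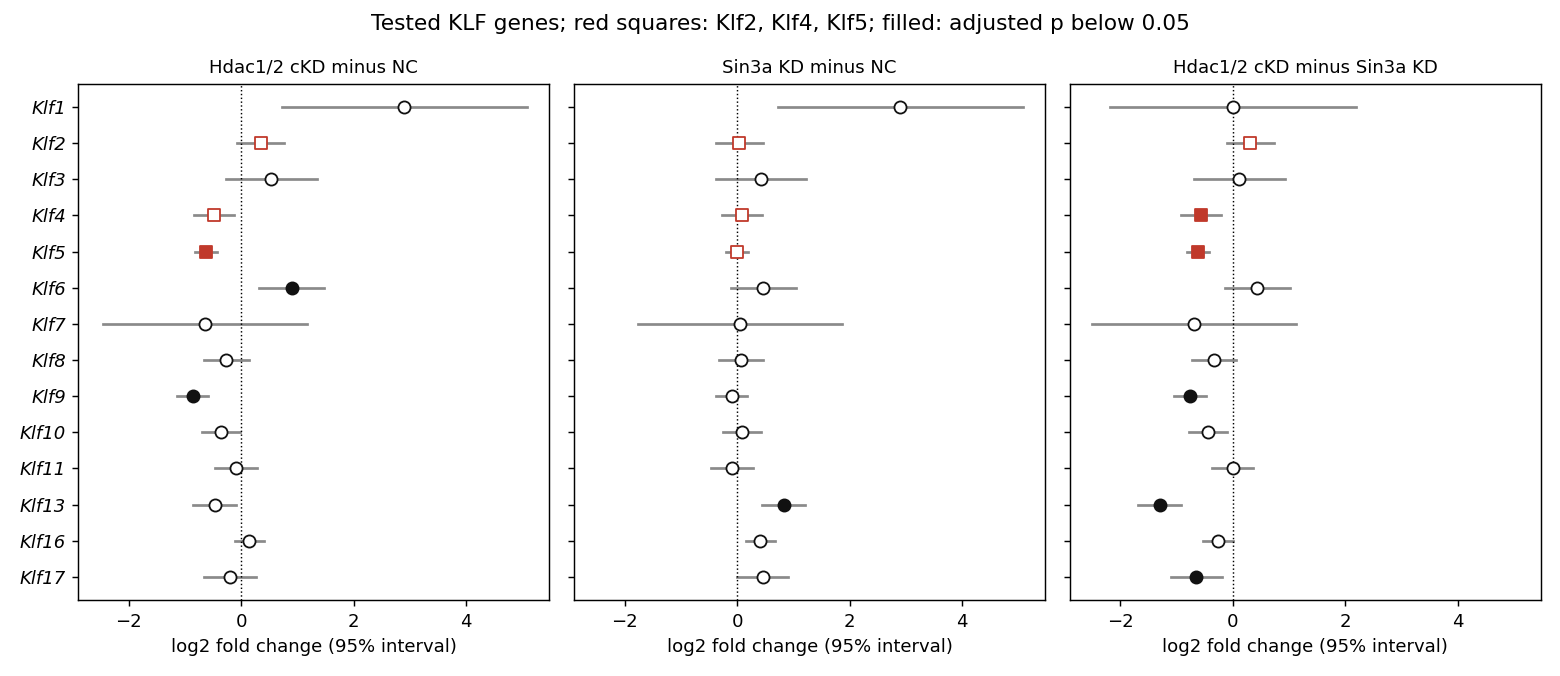
Log2 fold changes with 95% intervals of the 14 tested KLF genes in the 3 comparisons; squares mark Klf2, Klf4 and Klf5, circles the other KLF genes, and filled symbols an adjusted p below 0.05. In Hdac1/2 cKD minus NC, Klf5 and Klf9 are filled below 0 and Klf6 above it.

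All relatives of the 10 factors in a wider list, which holds those KLF genes, gave 27 tested genes. Against NC, 4 of them rose and 2 fell in Hdac1/2 cKD, with a median log2 fold change of 0.10. For all tested genes the called share was 15.6% there, 7.96% in Sin3a KD against NC and 17.3% between the knockdowns. Besides Klf6, Pou3f1, a POU factor of later epiblast and neural cells, rose to 246 normalised counts in Hdac1/2 cKD, against 117 in NC (log2 1.06, adjusted p = 0.0051), and Sox11, a SOX factor of neural progenitors, to 104 in Hdac1/2 cKD, against 25.5 in NC (log2 2.18, adjusted p = 0.00783). Yy1, the zinc finger relative of Zfp42, fell to 4331 in Hdac1/2 cKD, against 5323 in NC (log2 -0.30, adjusted p = 0.0407). In Sin3a KD 1 relative rose, Klf13, and 26 did not pass. Against Sin3a KD, 0 relatives were higher and 6 lower in Hdac1/2 cKD (10 in either direction at an unadjusted p below 0.05), among them Klf9, Klf13, Sox15, Sox21 and the Esrrb relative Esrra.

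The wider pluripotency network held 29 tested genes. In Hdac1/2 cKD against NC 9 of them fell, 5 rose and 15 did not pass, with a median log2 fold change of -0.09. Calls in either direction covered 15.6% of all tested genes in this comparison, 7.96% in Sin3a KD against NC and 17.3% between the knockdowns. Tdgf1, a co-receptor for Nodal, had 722, 828 and 944 normalised counts in Hdac1/2 cKD and 2376, 2302 and 2052 in NC (log2 -1.44, SE 0.14, adjusted p = 3.31e-05). Fbxo15, a target of OCT4 and SOX2 in stem cells, had 11641, 11679 and 11695 in Hdac1/2 cKD, against 20015, 18329 and 19839 in NC (log2 -0.73, SE 0.10, adjusted p = 0.00031). Both groups of libraries stood clear of each other for these genes. Dppa2 (log2 -0.82) and Tfap2c (log2 -0.81) also fell, whereas Lin28a, an RNA-binding protein gene that blocks let-7 microRNAs, rose to 4471 normalised counts in Hdac1/2 cKD, against 2140.3 in NC (log2 1.07, SE 0.12, adjusted p = 0.000131). In Sin3a KD 2 of the 29 fell, Fbxo15 (log2 -0.48, adjusted p = 0.0105) and Dppa2 (log2 -0.46, adjusted p = 0.0206), and Otx2, a homeobox factor of the later epiblast, rose to 401 in Sin3a KD, against 115 in NC (log2 1.93, adjusted p = 0.0112). Between the knockdowns 8 of the 29 were lower and 7 higher in Hdac1/2 cKD. Fgf4, the growth factor secreted by inner cells, was among the higher ones, with 326, 469.7 and 461 normalised counts in Hdac1/2 cKD and 74.4, 144 and 129.9 in Sin3a KD (log2 1.88, SE 0.26, adjusted p = 0.000408).

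Of 13 tested genes of LIF and WNT signalling, inputs to the network in stem cells, 3 rose, 3 fell and 7 did not pass in Hdac1/2 cKD against NC. The share called over all tested genes was 15.6% in this comparison and 7.96% in Sin3a KD against NC. Lif, the ligand, rose to 262 normalised counts in Hdac1/2 cKD, against 124 in NC (log2 1.07, SE 0.24, adjusted p = 0.00883), and Jak1, the kinase below its receptor, fell to 839.6 in Hdac1/2 cKD, against 1151 in NC (log2 -0.46, adjusted p = 0.0211). Axin2, a WNT target, rose to 134 in Hdac1/2 cKD, against 30.0 in NC (log2 2.33, SE 0.44, adjusted p = 0.00346). In Sin3a KD limma called 0 of the 13, and 0 had an unadjusted p below 0.05; the lowest adjusted p was 0.253, for Tcf7l1.

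Markers of the other cells that a pool could hold were summed per library. The 12 trophectoderm markers, led by Tead4 and Krt8, summed to 5438 to 6036 normalised counts in Hdac1/2 cKD, 6974 to 8267 in Sin3a KD and 8813 to 10800 in NC, and Gata2 was at 0 in 5 of the 9 libraries. Of 11 tested, Cdx2, Fgfr2, Gata3 and Tead4 fell in Hdac1/2 cKD against NC, and Krt8 and Krt18 in Sin3a KD against NC. The 10 primitive endoderm markers, led by Gata6 and Col4a1, had sums of 9227 to 10570.0 in Hdac1/2 cKD, 14030.0 to 15540.0 in Sin3a KD and 12310.0 to 14210.0 in NC, and Foxa2 was at 0 in 7 libraries and Sox17 in 4. Of 6 tested, 4 fell and 1 rose in Hdac1/2 cKD against NC, and 2 rose in Sin3a KD against NC. Beside the calls of both marker lists, 15.6% of all tested genes were called in Hdac1/2 cKD against NC and 7.96% in Sin3a KD against NC. Both sums were lowest in Hdac1/2 cKD, the group in which the 5 factors fell. Cumulus and granulosa markers, of which 8 of 12 were in the table, had sums of 85.4 to 93.6 in Hdac1/2 cKD, 76.2 to 93.3 in Sin3a KD and 24.9 to 57.0 in NC, with Cyp19a1 at 0 in 7 libraries and Nr5a1 in 6. The 8 oocyte markers, led by Zp3 and Gdf9, summed to 254 to 281 in Hdac1/2 cKD, 244 to 285 in Sin3a KD and 180.2 to 279 in NC. The 10 of 12 markers of the 2-cell stage in the table, led by Usp17lc and Tcstv1, summed to 75.6 to 269 in Hdac1/2 cKD, 122 to 153 in Sin3a KD and 58.7 to 159 in NC, with Tcstv3 at 0 in 7 libraries. In these 3 lists limma called 0 of 3, 0 of 7 and 0 of 6 tested genes in each comparison, and at most 1 per list and comparison had an unadjusted p below 0.05. The part of these cell types in the results was not tested.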

How the data were processed

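Per the labels, RFP and GFP messenger RNA was added before extraction, and libraries were made from polyadenylated RNA; the added RNA was not used here. Per the submitters' processing notes, reads were counted with Salmon and normalised with DESeq2 on GRCm38. Tool versions, annotation and strand setting: not given in the sources used here. Values of the signal kind that the authors deposited are normalised counts per gene. From them, 1 line without a gene name (0.00543% to 0.00896% of a library) was left out. Of the values below 20, 55.1% to 68.1% lay within 0.1 of whole multiples of a best step per library, so whole reads were not recovered and the depth in reads is unknown.

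Genes with at least 10 normalised counts in at least 3 of 9 libraries were fitted as log2(value + 1), which understates changes of low genes, with 1 mean per group in limma 3.58.1 (R 4.3.3; trend and robust variances). Intervals are 95% and unadjusted. Alternatives, 20 per comparison, covered pseudocount, filter, scaling, moderation, block, lane and libraries. The fit was also run on simulated data, drawn without lane effects or an outlying library. That run cannot show how these affect the calls, and no result given here rests on it. The members and lists were chosen with earlier results of these data known. Named genes are the 10 members, the targets, up to 5 called genes per list with the lowest adjusted p (up to 2 where none passed), leading markers, and the gene most like each member by Pearson's r; examples were then chosen after their values were seen. Klf17, the trophectoderm markers that fell and Tcstv3 were likewise named after their values were seen.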

Additional observations from a re-analysis of the deposited data

How the results depend on the processing

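Of 597 recomputed log2 fold changes of the 10 factors, 541 kept their direction and their side of the threshold, 33 lost a call, 4 gained one and 19 changed sign, all of them values that were called in neither setting. On the log2 scale, in Sin3a KD against NC, Sox2 (-0.31) was 0.74 with lane as a factor, 0.14 leaving out both lone-lane libraries and -1.21 to 0.18 without 1 library. Klf2 (0.04) was -0.16 with lane as a factor and -0.15 to 0.24 without 1 library, and Klf4 (0.09) was -0.0041 to 0.21 without 1 library. Klf5 (-0.00055) was 0.0937 with equal totals, 0.0168 with equal upper quartiles, 0.0874 with lane as a factor, 0.0178 leaving out both lone-lane libraries and -0.0409 to 0.0507 without 1 library. In Hdac1/2 cKD against Sin3a KD, Sox2 (-0.19) was -0.68 to 0.28 without 1 library, and Sall4 (0.02) was -0.0343 with lane as a factor and -0.0515 to 0.0828 without 1 library. Factors called in Hdac1/2 cKD against NC numbered 5; they were 3 with equal library totals, 3 with plain eBayes moderation, 3 with lane as a factor, 3 leaving out both lone-lane libraries, and 4 to 5 without 1 library. Factors called in Sin3a KD against NC numbered 1; they were 0 with plain eBayes moderation, 0 with lane as a factor, 0 leaving out both lone-lane libraries, and 0 to 1 without 1 library. In Hdac1/2 cKD against Sin3a KD they numbered 6; they were 3 with plain eBayes moderation, 4 with lane as a factor, 4 leaving out both lone-lane libraries and 4 to 6 without 1 library. Over all genes, Hdac1/2 cKD against NC gave 2083 calls, 1369 with that moderation, 1318 leaving out both lone-lane libraries and 1271 to 2170.0 without 1 library. Sin3a KD against NC gave 1062 calls, 36 with that moderation, 611 with the libraries of 2 groups alone, 94 with lane as a factor, 51 leaving out both lone-lane libraries and 337 to 1538 without 1 library. Hdac1/2 cKD against Sin3a KD gave 2304 calls, 1002 with lane as a factor, 1384 leaving out both lone-lane libraries and 1426 to 2748 without 1 library. Single libraries that moved these counts by over 1.5 times were, in Hdac1/2 cKD against NC, each Hdac1/2 cKD library (1271 to 1286). In Sin3a KD against NC they were Sin3a KD replicates 1 (340 calls without it) and 3 (337) and NC replicates 1 (589) and 3 (679). In Hdac1/2 cKD against Sin3a KD they were Hdac1/2 cKD replicates 1 (1498) and 2 (1497) and Sin3a KD replicate 1 (1426). Leaving out libraries or a group, or adding lane, lowers the residual degrees of freedom; the cause was not tested. With equal totals 67.2% of calls in Hdac1/2 cKD against NC were higher (1042 higher and 1041 lower as deposited) and 63.6% in Sin3a KD against NC (45.2%).

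Deviations of same-numbered libraries from their group means correlated at -0.0193 to 0.0581, and those of differently numbered libraries at -0.0432 to 0.0331. These ranges overlap, and whether replicate numbers mark pairs was not tested. With a replicate block the called factors numbered 6, 1 and 7 in the 3 comparisons and all calls 2140.0, 1046 and 2372, with Klf4 gaining a call in Hdac1/2 cKD against NC (adjusted p = 0.0344) and Nanog in Hdac1/2 cKD against Sin3a KD (adjusted p = 0.0411). Low counts limit Sox2, whose intervals span more than 3 log2 units, and it was not tested at a mean of at least 50.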
